A study of Mus musculus with 3 samples.

Results

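The genes described here are 42 genes of the amino acid and one-carbon programme driven by ATF4, a transcription factor whose protein is made when amino acids run short or when other stresses lead to phosphorylation of the initiation factor eIF2. They were chosen by name as known members of the programme, with earlier results of these data known, and fall into 13 enzymes of amino acid and folate metabolism (8 of serine, glycine and one-carbon metabolism and 5 others), 9 amino acid transporters, 13 tRNA synthetases and 7 transcription factors and stress effectors. Of the 42 genes, 41 had a matched probe and 36 were measured on all 3 arrays, out of 19751 genes with a matched probe in the series. Pycr1 had no matched probe.

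ATF4 binds DNA together with C/EBP proteins and switches on genes that import amino acids, synthesise them and charge them onto tRNA, and its stress effectors include factors that later restrain growth or promote cell death. Activated T cells enlarge and divide, and need serine-derived one-carbon units for purines and thymidylate, asparagine and other amino acids for protein, and charged tRNA for translation. In proliferating cells the programme is known to respond to mTORC1 as well as to amino acid supply.

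The samples were naive CD4 T cells sorted with magnetic beads from the spleens of C57BL/6 mice 6 to 8 weeks old, and 3 cultures derived from such cells. All cultures received plate-bound antibody to CD3e and soluble antibody to CD28 (10 µg/ml each) for 3 days. For Th2 cells the cytokines were IL-4 at 5 ng/ml with IL-2 at 1 ng/ml, beside anti-IFNγ at 2 µg/ml. For Th9 cells they were human TGF-β1 at 2 ng/ml, IL-4 at 1 ng/ml and IL-2 at 0.2 ng/ml, beside anti-IFNγ at 5 µg/ml. Induced regulatory T cells (iTreg) grew in human TGF-β1 at 5 ng/ml and IL-2 at 0.4 ng/ml, with antibodies to IFNγ and to IL-4 at 5 µg/ml each. Each culture was hybridised in the Cy5 channel against naive RNA in the Cy3 channel of 1 Agilent array, with 0.2 µg of total RNA labelled. Each culture had 1 array and dyes were not swapped, so replicate spread is unknown, no p-value is given, and a gene is called higher or lower by size alone, at 2-fold (log2 1). The arrays shared 1 slide, and a culture and its array position cannot be told apart. Whether the 3 naive channels held 1 RNA extract is not stated in the labels. No culture activated without polarising cytokines was analysed, so a ratio against naive holds activation and medium together. In bulk RNA, fewer cells with a transcript and less transcript per cell cannot be told apart.

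Each array had 43020 gene spots, of which the naive channel detected 53.0% to 54.1% and the culture channel 48.9% to 51.0% well above background, with 0 saturated. A value with ± carries the error that the scanner software gives for the spot on 1 array, whose median over the genes described was 0.21 to 0.23 log2 units. The SD of a gene over the 3 naive channels had a median of 0.06 over these genes, against 0.56 over the 3 culture channels. Foxp3, the regulatory T cell factor, had log2 ratios over naive of -0.68 (Th2), 1.28 (Th9) and 3.49 (iTreg). Of the other regulatory T cell markers, Il2ra had 2.33, 2.57 and 3.91, and Ikzf2 -1.35, -0.37 and 1.08. Ctla4 was highest in Th9, at 3.28, 4.18 and 3.52. Il4 had 5.08 in Th2 and 1.04 in Th9, and its iTreg signal was not well above background. Gata3 had 1.40, 1.01 and 0.53. Il13 had 4.41 in Th2, at least 1.26 in Th9 with naive at background, and -0.07 in iTreg. Il5, with naive at background, had at least 2.645 in Th2 and 1.76 in Th9, and 0.07 in iTreg. Il9 had 6.52 in Th9, at least 2.64 in Th2 with naive at background, and no signal well above background in iTreg. Irf4, also listed for Th9, had 3.87, 3.56 and 3.59. All 6 T cell markers were above background in both channels of every array. At least 2-fold lower than naive were 4 of them in Th2, 5 in Th9 and 0 in iTreg, where 14.5%, 15.6% and 8.15% of all genes were. The T cell markers' medians were log2 -1.25, -1.30 and -0.42. With median centring they were 0.25, -0.33 and -0.12, and 0 were 2-fold lower in any culture. Of 6 NK and CD8 T cell markers, 5 were above background in the naive channel and 2 to 3 in the cultures, and their summed normalised intensity was 65143 to 71350 in naive and 1009 to 9976 in the cultures. Gzma (log2 15.84 to 15.99) made most of the naive sum. Its ratios were -2.80, -4.35 and -6.48, and those of Cd8b1 0.06, -0.80 and -0.30. Of 5 myeloid markers with a probe, 4 to 5 were above background in naive (summed intensity 17540 to 20051) and 2 to 3 in the cultures (7870 to 17744). Itgam (log2 13.95 to 14.17) made most of that naive sum. Among 5 B cell markers only Cd79b was above background, at 533 to 562 in naive and 2000 to 2249 in the cultures. The part of other cells in the ratios below was not tested.

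The DNA element that ATF4 and C/EBP proteins occupy together was searched in the promoters because these genes were chosen for that factor. RefSeq promoters (GRCm38.p6, 250 bases before to 50 bases after a gene's start) were at hand for 33 of the 42 genes. The 8 letters TGATGNAA, on either strand, were found in 12 of these 33 (36.4%), against 1219 of 27025 genes with a promoter of the same length (4.51%). With only the 250 bases before the start the shares were 24.2% and 3.91%. The core TGACGTCA of the cyclic AMP response element, searched on both strands and counted apart, was in 0 of the 33 and in 2.03% of all genes. A match describes letters and shows no binding. The windows below belong to the genes whose match lies wholly before the start and whose probe gave a value, plus Slc7a11, which holds a pair of matches and gave no signal. They are written in the direction of the gene, and capitals mark the match or its reverse complement.
Asns (chr6:7693210-7693258, minus strand): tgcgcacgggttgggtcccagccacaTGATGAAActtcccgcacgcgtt
Chac1 (chr2:119351023-119351082, plus strand): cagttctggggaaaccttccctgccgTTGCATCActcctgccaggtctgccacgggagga
Got1 (chr19:43524674-43524733, minus strand): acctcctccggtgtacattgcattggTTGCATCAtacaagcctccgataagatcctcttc
Aars (chr8:111033704-111033763, plus strand): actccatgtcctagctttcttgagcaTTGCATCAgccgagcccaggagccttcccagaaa
Gars (chr6:55037945-55038000, plus strand): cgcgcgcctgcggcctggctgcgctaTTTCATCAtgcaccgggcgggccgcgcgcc
Tars (chr15:11399659-11399699, minus strand): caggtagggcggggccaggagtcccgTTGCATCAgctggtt
Slc7a11 (chr3:50443646-50443705, minus strand): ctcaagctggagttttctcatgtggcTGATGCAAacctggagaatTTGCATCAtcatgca

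The matches of Asns and Gars read TGATGAAA, and those of Chac1, Got1, Aars, Tars and Slc7a11 read TGATGCAA. Their first base lay 23 bases before the start in Asns, 193 in Chac1, 102 in Got1, 112 in Aars, 30 in Gars and 15 in Tars. Aars held another match after its start, and Pycr1 held one before it. In Slc1a4 the match spanned the start, and in Trib3, Yars and Iars it lay after it. Ratios over naive were described for both sets, without a test. In Th2 the medians were log2 1.39 over 8 measured genes with a match and 1.14 over 20 without, in Th9 1.08 and 1.15, and in iTreg 0.31 and 0.15.

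Over all roles, the programme was higher in Th2 and Th9 than in naive cells and near naive levels in iTreg. In Th2, 22 of the 37 genes measured stood at least 2-fold higher and 0 lower, where 14.8% of all 10945 measured genes were higher and 14.5% lower. In Th9, 19 of 37 were higher and 2 lower, where 15.5% and 15.6% of all genes were. In iTreg, 3 of 36 were higher and 3 lower, where 10.2% and 8.15% of all genes were. The genes' medians were log2 1.14, 1.07 and 0.12, while the median of all genes lay between -0.02 and -0.01 on each array. On all 3 arrays 3 of 36 genes were at least 2-fold higher, namely Asns, Mthfd1l and Trib3, and 0 were lower, where 7.29% and 6.02% of all genes were. Genes with naive signal at background, Chac1 among them, were not counted and are given as bounds below. The plot of ratios by role shows the same order of cultures in most genes.

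**Figure D1:**
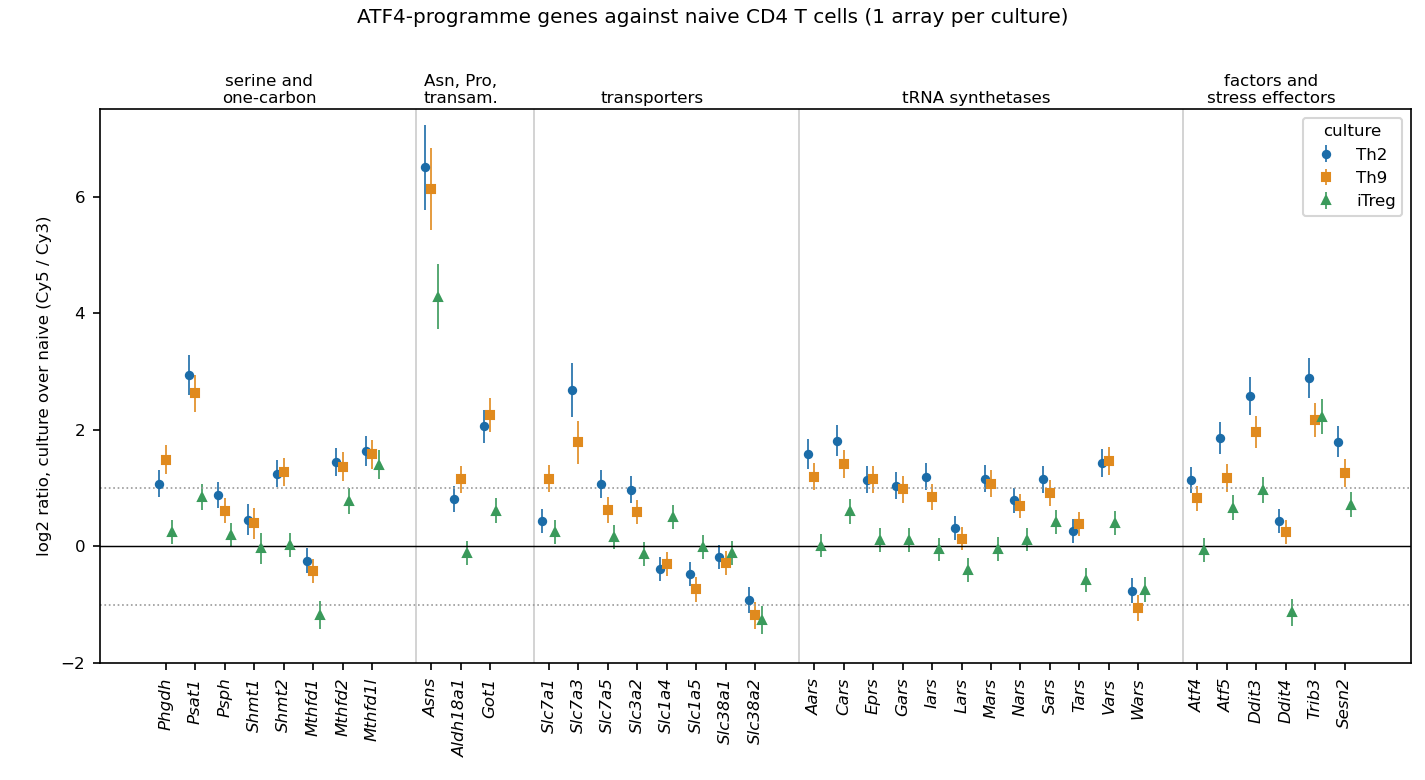
Log2 ratio of each culture over naive (y axis) for the 37 genes measured on at least 1 array (x axis, grouped by role). Points are single arrays, bars the scanner software's error, dotted lines 2-fold. Asns stands above all others at 6.50, 6.13 and 4.28, and most iTreg points lie near 0.

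Scaling bears on these counts. Median centring of each array in place of loess moved the median of all genes by 0.33 in Th2, 0.11 in Th9 and -0.21 in iTreg. The counts higher and lower were then 28 and 0 in Th2 (all genes 25.4% and 7.40%), 25 and 0 in Th9 (21.5% and 11.4%) and 3 and 2 in iTreg (8.18% and 12.0%). Signs turned for 3 of 37 genes in Th2, 1 of 37 in Th9 and 6 of 36 in iTreg, none of them at 2-fold in either setting.

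Among the enzymes, Asns, asparagine synthetase, which makes asparagine from aspartate and glutamine, had the largest ratio. Its normalised log2 intensity was 14.21 in Th2, 13.64 in Th9 and 11.32 in iTreg, against 7.71, 7.51 and 7.04 in the naive channels of those arrays. All 3 cultures were therefore far above every naive channel, and iTreg lay lowest. The ratios were log2 6.50 ± 0.73 (90.7-fold), 6.13 ± 0.70 (69.9-fold) and 4.28 ± 0.55 (19.5-fold), which placed Asns 1st of all measured genes in Th2, 4th in Th9 and 23rd in iTreg. By the deposited series values the ratios were 7.33, 6.96 and 5.45. The naive signal was weak and its SD over the 3 arrays, 0.35, was the largest of the programme. It was highest on the array with the highest culture signal, and whether the bright channel reached into the dim one was not tested. The iTreg ratio minus that of Th2 was log2 -2.22 ± 0.92, and -2.90 when the culture channels were compared directly.

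Other enzymes of amino acid synthesis were higher in the cultures given IL-4. Got1, the cytosolic aspartate aminotransferase, gave 13.62 in Th2, 13.96 in Th9 and 12.33 in iTreg over 11.56, 11.70 and 11.72 in naive. Its ratios were 2.06 ± 0.28, 2.25 ± 0.30 and 0.61 ± 0.21, so that only Th2 and Th9 passed 2-fold. Aldh18a1, which starts proline synthesis from glutamate, stood at 0.81 (1.08 with median centring), 1.15 and -0.11. Gpt2, the mitochondrial alanine aminotransferase, was not well above background in any naive channel. By the background level it was higher by at least log2 2.08 in the Th2 culture, 1.47 in Th9 and 0.77 in iTreg.

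The serine and one-carbon enzymes did not move as a block. In the pathway from glycolysis to serine, Psat1, phosphoserine aminotransferase, gave a log2 intensity of 13.85 in Th2 and 13.58 in Th9 but 11.71 in iTreg, over 10.91, 10.96 and 10.87 in naive. Its ratios were 2.94 ± 0.35 (7.67-fold), 2.62 ± 0.32 (6.16-fold) and 0.84 ± 0.22 (1.80-fold), and its other probe gave 1.71, 1.81 and 0.35. Phgdh, phosphoglycerate dehydrogenase, which commits carbon to serine, stood at 1.07 ± 0.23, 1.48 ± 0.25 and 0.25 ± 0.21. Psph, phosphoserine phosphatase, which ends the pathway, stood at 0.89, 0.61 and 0.20. Its Th2 value passed 2-fold with median centring (1.52) and by the deposited series values (1.05).

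The mitochondrial arm of folate metabolism was at least 2-fold higher in Th2 and Th9, and the cytosolic arm was not. Shmt2, mitochondrial serine hydroxymethyltransferase, stood at 1.25 ± 0.24 in Th2, 1.27 ± 0.24 in Th9 and 0.02 ± 0.20 in iTreg. Its cytosolic counterpart Shmt1 stood at 0.46, 0.40 and -0.04. Mthfd2, the mitochondrial methylenetetrahydrofolate dehydrogenase of proliferating cells, stood at 1.45, 1.37 and 0.78. Mthfd1l, the mitochondrial formate-releasing enzyme, was nearly level across cultures at 1.63 ± 0.26, 1.58 ± 0.25 and 1.40 ± 0.25. The cytosolic trifunctional enzyme Mthfd1 stood at -0.24, -0.43 and -1.18 ± 0.24, at least 2-fold lower in iTreg. With median centring its Th2 value was 0.15. Over the 8 enzymes, 5, 5 and 1 were at least 2-fold higher in Th2, Th9 and iTreg, with medians of 1.16, 1.32 and 0.22. Lower by 2-fold were 0, 0 and 1. Of all genes 14.8%, 15.5% and 10.2% were higher, and 14.5%, 15.6% and 8.15% lower.

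Other genes of folate, glycine cleavage and the methionine cycle had lower medians than these enzymes in Th2 and Th9. Of a list of 22, 18 were measured in Th2, with 4 higher and 2 lower and a median of -0.16 (0.15 with median centring). In Th9, 3 of 18 were higher and 3 lower, with a median of -0.19, and in iTreg 1 of 19 was higher and 3 lower. For all genes the shares higher were 14.8%, 15.5% and 10.2% in Th2, Th9 and iTreg, and those lower 14.5%, 15.6% and 8.15%. Ahcy, which hydrolyses S-adenosylhomocysteine, was the highest in Th2 and Th9 at 2.32 and 2.73, and stood at 0.67 in iTreg. Mat2a, which makes S-adenosylmethionine, was the lowest on every array, at -3.63 ± 0.40, -4.07 ± 0.44 and -2.02 ± 0.27. Of 17 other enzymes of glutamate, proline and cysteine metabolism, 3 of 15 measured were higher and 1 lower in Th2, 3 of 14 higher and 3 lower in Th9, and 0 of 13 higher and 1 lower in iTreg. Among genes above background in both channels, the glutaminase gene Gls2 led in Th2 and Th9 at 4.85 ± 0.63 and 5.08 ± 0.65. Its iTreg value, with naive at background, was at least 2.87. Cth and Bcat1, with naive at background on every array, were not counted. Cth was higher by at least 3.66, 2.53 and 0.32, and Bcat1 by at least 3.60, 3.64 and 1.95, in Th2, Th9 and iTreg. Their place beside Gls2 is not known.

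The transporters split into members that were higher and members that were at or below naive levels, with medians of 0.13 in Th2, 0.16 in Th9 and -0.01 in iTreg. Slc7a3, a cationic amino acid transporter for arginine and lysine, gave 9.35 in Th2, 8.37 in Th9 and 7.32 in iTreg over 6.67, 6.58 and 6.54 in naive. Its ratios were 2.68 ± 0.46 in Th2 and 1.79 ± 0.37 in Th9. By the deposited series values they were 4.36 and 3.04, and by processed signals 4.31 and 3.02. In iTreg its naive channel was at background and the value was at least 0.77. Slc7a1, the related transporter CAT1, stood at 0.43 ± 0.21, 1.16 ± 0.23 and 0.24 ± 0.21, past 2-fold in Th9, and with median centring in Th2 as well (1.16).

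Slc7a5 and Slc3a2 encode the light and heavy chains of the large neutral amino acid transporter LAT1. Slc7a5 stood at 1.07 ± 0.24 in Th2, 0.63 in Th9 and 0.16 in iTreg. Its other probe gave 0.22, 0.10 and -0.15. Slc3a2 stood at 0.97 ± 0.23, 0.59 ± 0.21 and -0.12 ± 0.20, and with median centring at 1.73, 1.06 and -0.26. Both chains kept the order Th2, Th9, iTreg, and Slc7a5 in Th2 passed 2-fold by 1 of its probes.

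The programme's 4 sodium-coupled carriers of neutral amino acids were not 2-fold higher in any culture. Slc38a2, the SNAT2 glutamine and alanine carrier, stood at -0.91 ± 0.22, -1.18 ± 0.23 and -1.26 ± 0.24, and was at least 2-fold lower in Th9 and iTreg (-0.85 in Th9 with median centring). Slc38a1 stood at -0.18, -0.28 and -0.12, with 1 other probe at -0.57, -0.54 and -0.49 and another at 0.25, 0.26 and 0.30, so its probes differed in direction. Slc1a5, the glutamine carrier ASCT2, stood at -0.47, -0.73 and -0.01. Slc1a4, the related ASCT1, stood at -0.38, -0.30 and 0.51, and its naive signal varied over the arrays (10.80, 10.74 and 10.29). Slc7a11, the cystine and glutamate exchanger, was not well above background in any channel. Of 24 other amino acid transporters, 14 were measured against naive. At 2-fold 1 was higher in Th2, 2 in Th9 and 4 in iTreg, where 14.8%, 15.5% and 10.2% of all genes were. The glycine transporter gene Slc6a9 (2.48, 2.39 and 1.12) led in Th2 and Th9, and Slc43a1, a carrier of large neutral amino acids, led in iTreg (0.56, 1.35 and 3.52 ± 0.46).

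Among the tRNA synthetases, 12 of 13 were measured, and 8 were at least 2-fold higher in Th2, 5 in Th9 and 0 in iTreg. Lower by 2-fold were 0, 1 and 0. Of all genes 14.8%, 15.5% and 10.2% were higher, and 14.5%, 15.6% and 8.15% lower. The synthetases' medians were 1.15, 0.94 and 0.06 (-0.21 in iTreg with median centring). Cars, for cysteine, had the highest ratio in Th2, from log2 intensities of 13.12 there, 12.68 in Th9 and 11.87 in iTreg over 11.26 to 11.31 in naive. Its ratios were 1.81 ± 0.27, 1.42 ± 0.24 and 0.60 ± 0.21. Aars, for alanine, gave 12.13, 11.73 and 10.61 over 10.53 to 10.59 in naive, so its iTreg signal lay within the spot error of naive. Its ratios were 1.59 ± 0.25, 1.19 ± 0.23 and 0.02 ± 0.20, and the second probe, measured on the Th9 array alone, gave 0.28.

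The remaining synthetases were lowest in iTreg except Wars, and Th2 and Th9 had no fixed order. Vars (valine) stood at 1.43, 1.47 and 0.41, Iars (isoleucine) at 1.19, 0.85 and -0.05, Mars (methionine) at 1.16, 1.07 and -0.04. Sars (serine) stood at 1.15, 0.91 and 0.42, Eprs (glutamate and proline) at 1.14, 1.15 and 0.10, and Gars (glycine) at 1.04, 0.98 and 0.12. With median centring Gars stood at 2.31 in Th2 and 1.98 in Th9, Sars at 2.24 and 1.72, and Iars at 1.06 in Th9. Nars (asparagine) stood under 2-fold at 0.79 (1.21 with median centring), 0.69 and 0.12, as did Lars (leucine) at 0.32, 0.13 and -0.41 and Tars (threonine) at 0.26, 0.38 and -0.58. Wars, the tryptophan enzyme, which interferon gamma also induces, went the other way at -0.76 ± 0.22, -1.06 ± 0.23 and -0.74 ± 0.21 (-0.78 in Th9 with median centring). Its other probe gave 0.25, 0.04 and -0.21, so the direction in Th2 and Th9 depended on the probe. Yars was dimly above background in the naive channels and not well above it in any culture.

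Synthetases outside the programme were counted in the same way. Of 10 other cytosolic synthetases and scaffold proteins, 2 were at least 2-fold higher in Th2, 1 in Th9 and 1 in iTreg. On each array 0 were lower, with medians of 0.60, 0.63 and -0.21. Aimp1, a scaffold of the multi-synthetase complex, was the highest at 1.55, 1.64 and 1.14, and Farsa, a chain of the phenylalanine enzyme, the lowest at -0.37, -0.53 and -0.59. With median centring 6 of the 10 were higher in Th2 and in Th9, where 25.4% and 21.5% of all genes were. Of 17 mitochondrial synthetases 16 were measured, with 0, 1 and 1 higher and 3, 5 and 4 lower, and medians of -0.41, -0.48 and -0.43 (0.00, -0.34 and -0.71 with median centring). Fars2 (0.97, 1.00 and 1.32) was the highest on each array. Among all measured genes 14.8%, 15.5% and 10.2% were higher, and 14.5%, 15.6% and 8.15% lower, in Th2, Th9 and iTreg. The difference between these lists was not tested.

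**Figure D2:**
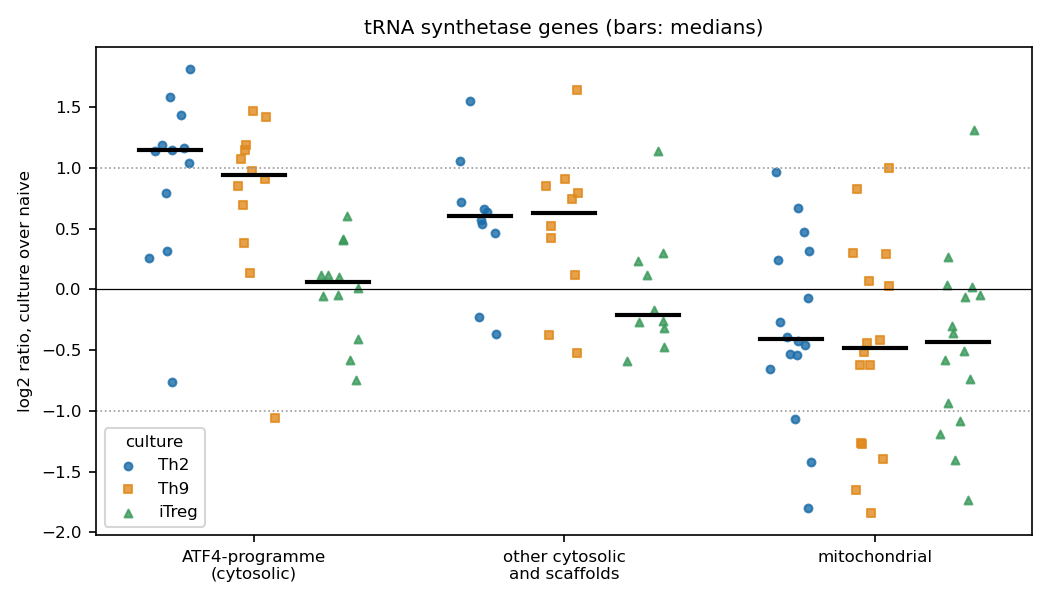
Log2 ratio over naive (y axis) for measured tRNA synthetase genes of 3 classes (x axis); each point is a gene on 1 array, bars are medians and dotted lines mark 2-fold. The programme's medians are 1.15, 0.94 and 0.06, and those of the mitochondrial genes -0.41, -0.48 and -0.43.

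The transcription factors and stress effectors were highest in Th2. Atf4 itself gave 16.06 in Th2, 15.79 in Th9 and 14.96 in iTreg over 14.92, 14.96 and 15.03 in naive. Its ratios were 1.14 ± 0.23 (2.21-fold), 0.83 ± 0.22 (1.77-fold) and -0.06 ± 0.20, and its other probe gave 1.69, 1.39 and 0.22. With median centring the ratios were 2.59, 1.98 and 0.22. ATF4 is controlled mainly at translation, which these arrays do not measure. Atf5, a related factor also translated under stress, stood at 1.86 ± 0.27, 1.17 ± 0.23 and 0.66 ± 0.21.

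Ddit3, which encodes the stress factor CHOP, gave 12.84 in Th2, 12.07 in Th9 and 10.92 in iTreg over 10.26, 10.11 and 9.95 in naive. Its ratios fell in that order, at 2.58 ± 0.32 (5.98-fold), 1.96 ± 0.28 (3.89-fold) and 0.97 ± 0.22 (1.96-fold, and 1.04 with an offset of 0). Trib3, a pseudokinase induced by ATF4 and CHOP, gave 13.17, 12.35 and 12.41 over 10.28, 10.18 and 10.18. Its ratios of 2.88 ± 0.34, 2.17 ± 0.29 and 2.23 ± 0.30 make it, beside Asns and Mthfd1l, a gene at least 2-fold higher in iTreg too. Chac1, which degrades glutathione, was at background in every naive channel, and its culture signals were 9.94, 8.72 and 7.69. Its bounds were at least log2 3.42 (Th2), 2.19 (Th9) and 1.20 (iTreg) higher, so by these bounds Chac1 too passed 2-fold in each culture.

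Sesn2 and Ddit4 encode inhibitors of mTORC1. Sesn2, which also senses leucine, stood at 1.80 ± 0.27, 1.25 ± 0.24 and 0.72 ± 0.22. Ddit4, or REDD1, gave 16.45 in Th2, 16.38 in Th9 and 15.24 in iTreg over 16.02, 16.13 and 16.37 in naive. Its ratios were 0.43 ± 0.21, 0.25 ± 0.20 and -1.13 ± 0.23. They were 2.05, 1.59 and -0.71 with median centring, so this ratio depended on the scaling, whereas iTreg lay below both other cultures in each setting.

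**Figure D3:**
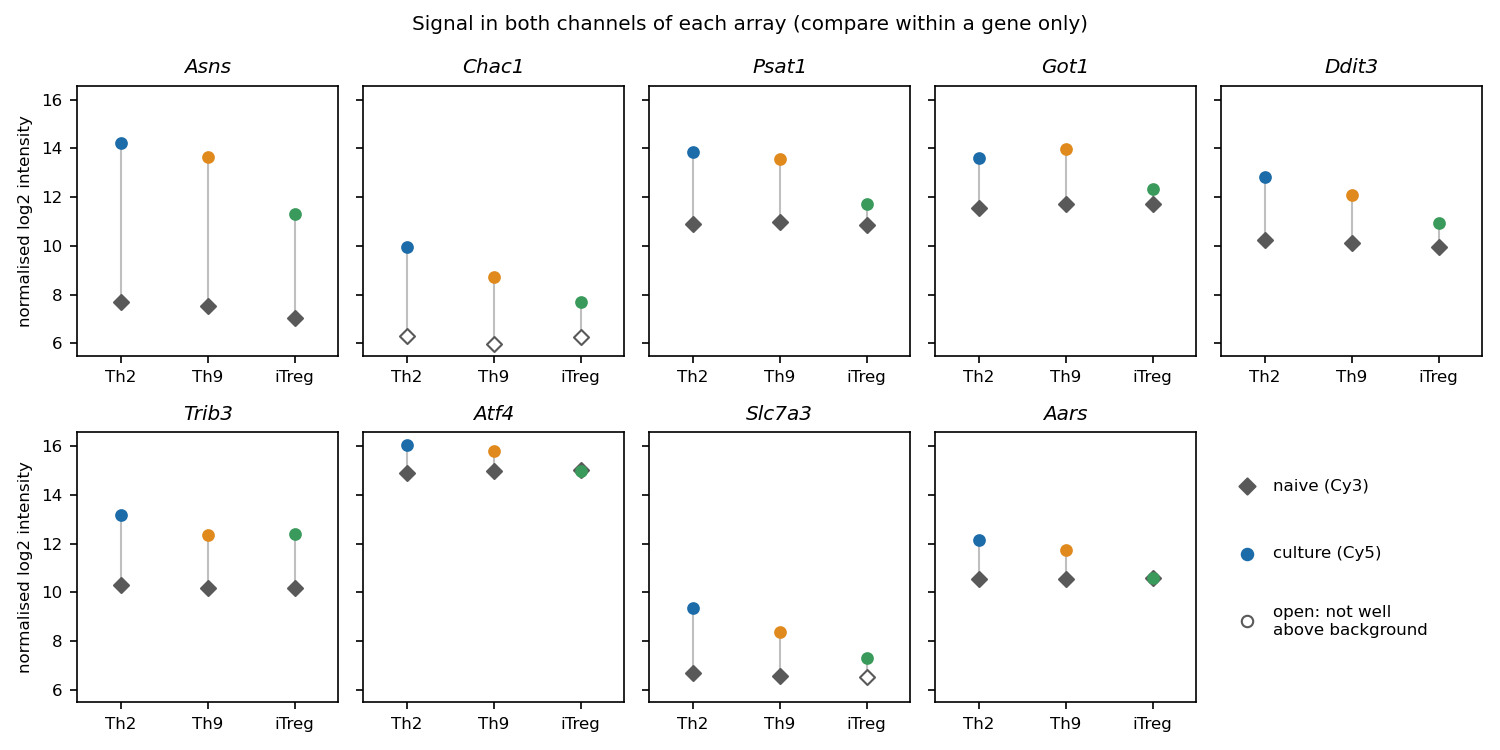
Normalised log2 intensity (y axis) in the naive Cy3 channel (diamonds) and the culture Cy5 channel (circles) of each array (x axis) for 9 genes; open symbols were not well above background. The naive diamonds vary most in Asns (7.71, 7.51 and 7.04) and less within the other genes, while the iTreg circle is lowest for every gene but Trib3.

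Outside the programme's own list, 9 of 17 measured partners and other targets of ATF4 were at least 2-fold higher in Th2, 9 of 17 in Th9 and 5 of 13 in iTreg, with 0 lower. Shares of all genes were 14.8%, 15.5% and 10.2% higher and 14.5%, 15.6% and 8.15% lower in Th2, Th9 and iTreg. The medians of these partners and targets were 1.24, 1.13 and 0.53. Among genes above background in both channels, Stc2, a secreted glycoprotein, was the highest in Th2 at 4.96 ± 0.62 and stood at 4.24 and 3.27 in Th9 and iTreg. Ero1l, an oxidase of the endoplasmic reticulum, was the highest in Th9, at 4.88, 4.77 and 2.94. Both are also known targets of the response to low oxygen. Vldlr, a lipoprotein receptor whose naive signal was at background, was higher by at least 4.93, 4.62 and 3.94, and its place beside them is not known. Of 12 genes for eIF2, its kinases, phosphatases and partners, 2 were higher and 1 lower in Th2, 3 and 2 in Th9 and 2 and 2 in iTreg. Ppp1r15a, the eIF2 phosphatase subunit GADD34 and itself a known ATF4 target, was the lowest on every array at -1.20 ± 0.23, -1.36 ± 0.23 and -1.80 ± 0.26. Eif2ak3, the endoplasmic reticulum kinase PERK, was the highest in iTreg at 1.60, after 1.10 and 1.32 in Th2 and Th9.

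The cultures were then set against each other, which cancels a dye effect that a gene shows alike on both arrays. These differences share naive RNA as reference. Th9 and Th2 both received IL-4, and 0 of 37 genes differed by 2-fold in either direction, where 1.28% of all 10459 genes were higher and 1.38% lower in Th9. The median difference, Th9 minus Th2, was -0.18. For 11 genes Th9 was lower, and for 3 higher, by more than the combined spot error, and 23 lay within it. The share of all genes beyond that error was not counted. The largest differences were Slc7a3 at -0.89 ± 0.59, Slc7a1 at 0.73 ± 0.31, Trib3 at -0.72 ± 0.45, Atf5 at -0.69 ± 0.36 and Ddit3 at -0.62 ± 0.43. All 6 measured factors and stress effectors were lower in Th9, with a median of -0.58. Chac1, compared directly between the culture channels, differed by -1.22.

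The programme was lower in iTreg, the culture with antibody to IL-4 and the higher dose of TGF-β1, than in both other cultures. Against Th2, 16 of 36 genes were at least 2-fold lower and 0 higher, where 6.69% of all 10538 genes were lower and 6.87% higher. The median difference was -0.92, and 30 genes were lower and 2 higher by more than the combined spot error. Against Th9, 11 of 36 were at least 2-fold lower and 0 higher, where 6.29% and 6.80% of all genes were. The median was -0.79, with 29 genes lower and 3 higher by more than the combined error. In 31 of 36 genes iTreg had the lowest ratio of the cultures. Shares of all genes were not counted for the lowest ratio or for differences beyond the combined error. With median centring, 31 and 24 genes were lower against Th2 and Th9, and 26.8% and 16.8% of all genes were.

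By role, the 3 measured asparagine, proline and transaminase enzymes (median -1.45) and the factors and stress effectors differed most between iTreg and Th2. After Asns, the log2 difference, iTreg minus Th2, was furthest from 0 for Psat1, at -2.09 ± 0.41 (4.27-fold). Ddit3 was at -1.61 ± 0.39 (3.05-fold) and Aars at -1.57 ± 0.32 (2.97-fold). Ddit4 was at -1.56 ± 0.31 and Got1 at -1.45 ± 0.35. Of the 12 synthetases 6 were lower by 2-fold, with a median of -0.98, and of the 6 factors and effectors 5, with a median of -1.20. Of 7 transporters 1 was, Slc3a2 at -1.10 ± 0.30, and their median was -0.19 (-1.02 with median centring). Of all genes 6.69% were lower by 2-fold. With median centring 11 of the 12 synthetases, 6 of the 6 factors and effectors and 4 of the 7 transporters were, with 26.8% of all genes. Slc7a3, compared directly between culture channels, differed by -2.03, and Chac1 by -2.25.

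A few genes were not lower in iTreg than in both other cultures by more than the combined error. Mthfd1l differed from Th2 by -0.23 ± 0.35 and from Th9 by -0.17 ± 0.35, both within the combined error. Trib3 was lower than in Th2, by more than that error (-0.66 ± 0.46), but differed from Th9 by 0.06 ± 0.42. Wars differed from Th2 by 0.02 ± 0.31 and Slc38a1 by 0.06 ± 0.29. Slc7a1 differed from Th2 by -0.19 ± 0.29 and Slc38a2 from Th9 by -0.08 ± 0.33, both within that error. Slc38a1, Slc7a1 and Slc38a2 are transporters, as are Slc1a4 and Slc1a5. Slc1a4 stood above its Th2 ratio by 0.89 ± 0.30 in iTreg and Slc1a5 by 0.46 ± 0.29, and in the direct comparison of channels these were 0.38 and 0.51. The mitochondrial tRNA synthetases had a median difference of 0.00 between iTreg and Th2 (-0.55 with median centring), and the other cytosolic ones -0.66.

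**Figure D4:**
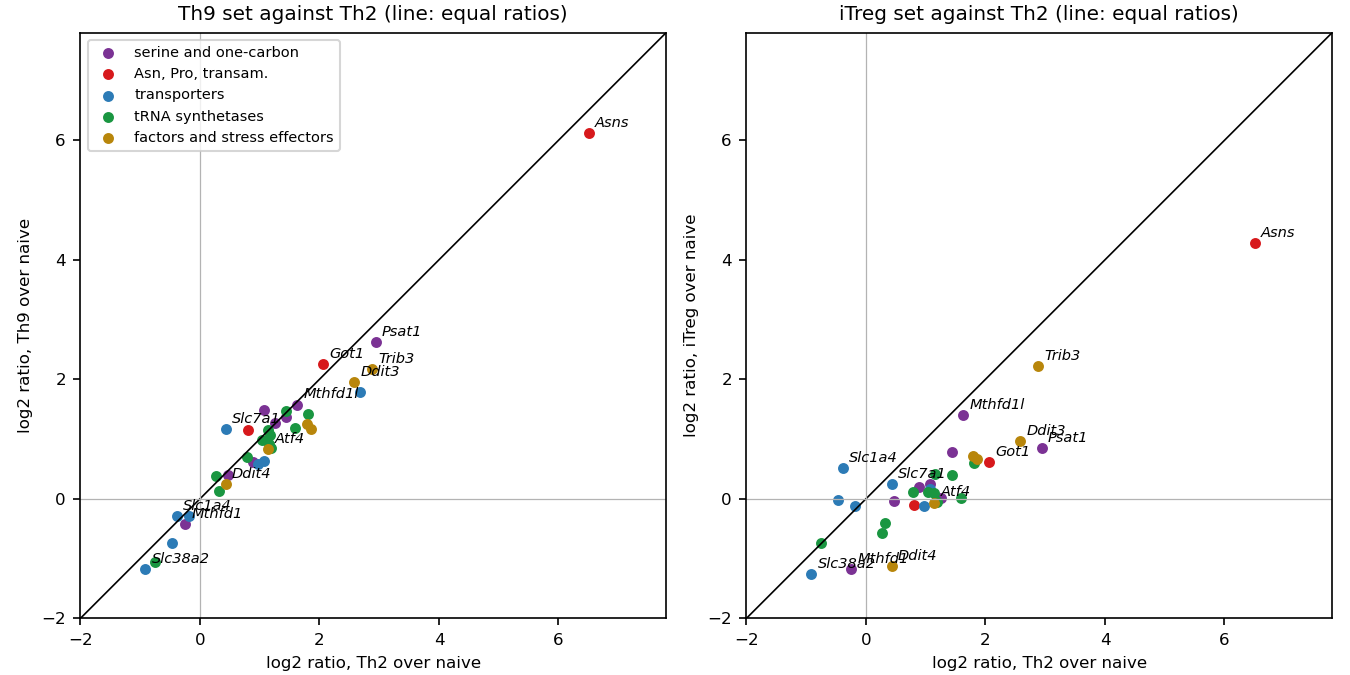
Log2 ratio over naive in Th9 (left) and iTreg (right) on the y axes against that in Th2 (x axes), 1 point per gene, coloured by role, with the line of equal ratios. The Th9 points follow the line (median difference -0.18), and the iTreg points lie mostly below it (-0.92), with Mthfd1l near it and Slc1a4 above it.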

How the data were processed

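The scanner files deposited for 3 arrays hold, per the file headers, median spot and background intensity in both channels from Agilent Feature Extraction 11.0.1.1 (9.3.2.1 in the submitters' processing notes). They also hold a deposited log10 value for the ratio and for its error, and a deposited p-value per spot, which was not used. The deposited series values were found to be the log2 ratio of processed intensity plus a constant (0.056, 0.021 and 0.037, within 0.001 for 99.3% to 99.4% of probes). Their medians are 0.14, 0.26 and 0.28 for Th2, Th9 and iTreg, and why the constants were added is unknown.

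Intensities were corrected by normexp (offset 50) and log2 ratios normalised by within-array loess in limma 3.58.1 (R 4.3.3), with control and outlier spots at weight 0. Of 39429 probes, 26055 matched a RefSeq gene (GRCm38.p6) by accession. The brightest probe stood for a gene. Genes above background in 1 channel have a bound against the dim channel's own signal or its lowest signal well above background, whichever was higher, on intensities quantile-scaled between arrays (Aquantile), which also gave the channel levels. The error of a difference is the root of summed squares. Cross-hybridisation was not tested. The procedure was tested on simulated arrays. Every gene of the programme is named, with cell type markers and, of the other lists, mainly the highest or lowest gene. The genes and lists were chosen with earlier results of these data known. Alternatives are given in the closing section. Further steps used Python 3.11.15, pandas 2.3.3, numpy 2.4.6 and matplotlib 3.10.9.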

Additional observations from a re-analysis of the deposited data

Results flagged for a closer look

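A few genes of the programme moved in opposite directions in different cultures by more than the scanner software's error on each array. With 1 array per culture these differences were not tested. The iTreg minus Th2 differences were -1.56 for Ddit4, -0.73 for Lars, -0.84 for Tars and 0.89 for Slc1a4. The iTreg minus Th9 differences were -1.38 for Ddit4, -0.96 for Tars and 0.80 for Slc1a4. With median centring, Ddit4, Lars and Tars still stood above naive in Th2 (2.05, 0.85 and 0.85) and below it in iTreg (-0.71, -0.63 and -0.79). Slc1a4 then stood at 0.01 in Th2, -0.14 in Th9 and 0.24 in iTreg.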

How the results depend on the processing

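No 2-fold call changed direction under the alternatives run. Calls lost were Slc38a2 (-0.85) and Wars (-0.78) in Th9 and Ddit4 (-0.71) in iTreg with median centring, Slc7a5 in Th2 (0.65), Aars (0.73) and Wars (-0.51) in Th9 with the median over a gene's probes, and Vars in iTreg against Th9 with processed signals (-0.97) and the deposited series values (-0.95). Shares of all genes were counted only at 2-fold with loess and with median centring, so the other counts here have none beside them. At a fold of 1.5 the counts were 2 lower in Th2, 10 higher in iTreg, 1 higher and 4 lower in Th9 against Th2, 1 higher and 28 lower in iTreg against Th2, and 2 higher and 21 lower in iTreg against Th9. With median centring 0 were lower in Th9 against naive, 2 were lower in Th9 against Th2, and 31 and 24 were lower in iTreg against Th2 and Th9. The shares of all genes lower were then 11.4%, 2.33%, 26.8% and 16.8%. With the median over a gene's probes 1 was lower in Th9. Processed signals, the deposited series values and the direct comparison of Cy5 channels each gave 1 gene lower in Th9 against Th2. No paired analysis was possible because each culture had 1 array, and leaving out an array would leave no value for its culture. Weak naive signal limits the ratios of Asns, Slc7a3, Gpt2 and Chac1.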

Other observations

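Of 18 genes listed for mTORC1 and MYC, which act on the same amino acid programme, 15 were measured. In Th2 1 was at least 2-fold higher and 1 lower, in Th9 3 and 2, and in iTreg 2 and 0. The shares of all genes were 14.8% and 14.5%, 15.5% and 15.6%, and 10.2% and 8.15%. The list's medians were -0.27, -0.01 and 0.18 (0.26, 0.08 and -0.01 with median centring). Castor1, an arginine sensor that inhibits mTORC1, was the highest in Th2 at 2.07, and Sesn1, a sestrin, the lowest at -1.21. Sestd1 was the highest in Th9 and iTreg at 2.75 and 3.20. It was listed beside the sestrins, but is not an established component of mTORC1.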
